A study of Mus musculus with 7 samples.

Results

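The 8 genes described here encode transcription factors, effectors and secreted factors of the integrated stress response: Atf4, Atf5, Atf3, Ddit3, Trib3, Chac1, Gdf15 and Fgf21. They were chosen by name, with earlier results of these data known, as were the lists of other genes used below. Shares of called genes among them are therefore not independent of the data. Each of the 8 names matched 1 of the 49584 features counted. The data are small RNA sequencing of crude heart mitochondria from mice, with 3 control and 4 knockout libraries. The design text speaks of 4 control mice, and 3 were analysed here. Control mice (L/L, Tefm +/+) had loxP sites around an exon of Tefm and no cre. Knockout mice (L/L, cre, Tefm -/-) had in addition cre driven by the promoter of muscle creatine kinase, so the gene is removed in heart and skeletal muscle fibres and other cells of the heart keep it. Tefm encodes the mitochondrial transcription elongation factor, and the study asked what its loss does to mitochondrial gene expression. The sources used here do not give ages. Each library was taken as 1 animal, and otherwise the p-values would cover only technical spread.

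In the integrated stress response, kinases that phosphorylate the translation factor eIF2 slow protein synthesis in general, while Atf4 mRNA is translated more, because of short reading frames before its coding sequence. Atf4 then switches on genes of amino acid supply, redox control and further transcription factors, often by binding with a C/EBP partner to a C/EBP-ATF response element. Failing mitochondria are a known trigger in heart and skeletal muscle, where Gdf15 and Fgf21 are used as secreted markers of mitochondrial disease.

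The promoters of the genes show which of them carry that element near their start. In windows from 250 bases before to 50 bases after each RefSeq gene start (GRCm38.p6), the core TGATGNAA was searched on both strands. Of the 8 genes, 4 held it (50%): Chac1, Fgf21, Atf3 and Trib3. Over all 27025 genes in the RefSeq table, 4.51% held it, and 3.97% of the 32851 windows did. All 4 matches were on the strand opposite to the gene, so that on the gene strand the letters read TTGCATCA in Chac1, Fgf21 and Atf3 and TTACATCA in Trib3. The sequences below are on the gene strand with the match in capitals. Those of Chac1, Atf3, Fgf21 and Trib3 are shown because they share a match to the core. Gdf15 is shown as the member with the highest ratio of counts among those with a ratio, and its windows held no match. The Chac1, Atf3, Fgf21 and Gdf15 sequences are the 250 bases before the RefSeq start, and the Trib3 sequence is 30 bases around a match that lies after its RefSeq start. For Chac1, Atf3 and Trib3 the RefSeq start differs from the GENCODE start given with the gene below. The Trib3 match lies before the GENCODE start, and the Atf3 sequence lies inside the GENCODE gene.
Chac1 (chr2:119350992-119351241, plus strand): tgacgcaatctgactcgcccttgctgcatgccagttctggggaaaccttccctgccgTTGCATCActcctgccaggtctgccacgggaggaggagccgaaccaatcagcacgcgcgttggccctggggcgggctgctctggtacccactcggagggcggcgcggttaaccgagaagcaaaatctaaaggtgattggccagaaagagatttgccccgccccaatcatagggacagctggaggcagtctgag
Atf3 (chr1:191183334-191183583, minus strand): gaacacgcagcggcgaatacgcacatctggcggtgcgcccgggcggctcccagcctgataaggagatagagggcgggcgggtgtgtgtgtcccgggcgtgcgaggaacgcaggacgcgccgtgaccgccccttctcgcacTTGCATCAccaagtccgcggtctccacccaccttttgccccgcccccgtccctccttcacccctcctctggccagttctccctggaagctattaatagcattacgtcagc
Fgf21 (chr7:45615491-45615740, minus strand): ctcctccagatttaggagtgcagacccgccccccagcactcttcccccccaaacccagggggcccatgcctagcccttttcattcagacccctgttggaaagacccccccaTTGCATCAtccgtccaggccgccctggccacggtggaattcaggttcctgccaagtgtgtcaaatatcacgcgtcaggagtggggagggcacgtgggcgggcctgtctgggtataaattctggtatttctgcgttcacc
Trib3 (chr2:152344028-152344057, minus strand): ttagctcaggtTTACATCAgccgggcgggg
Gdf15 (chr8:70632457-70632706, minus strand): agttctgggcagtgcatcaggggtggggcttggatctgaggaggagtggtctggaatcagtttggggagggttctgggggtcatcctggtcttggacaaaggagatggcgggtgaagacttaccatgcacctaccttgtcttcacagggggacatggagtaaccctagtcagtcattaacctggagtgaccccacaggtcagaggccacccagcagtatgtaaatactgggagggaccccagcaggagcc

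**Figure D1:**
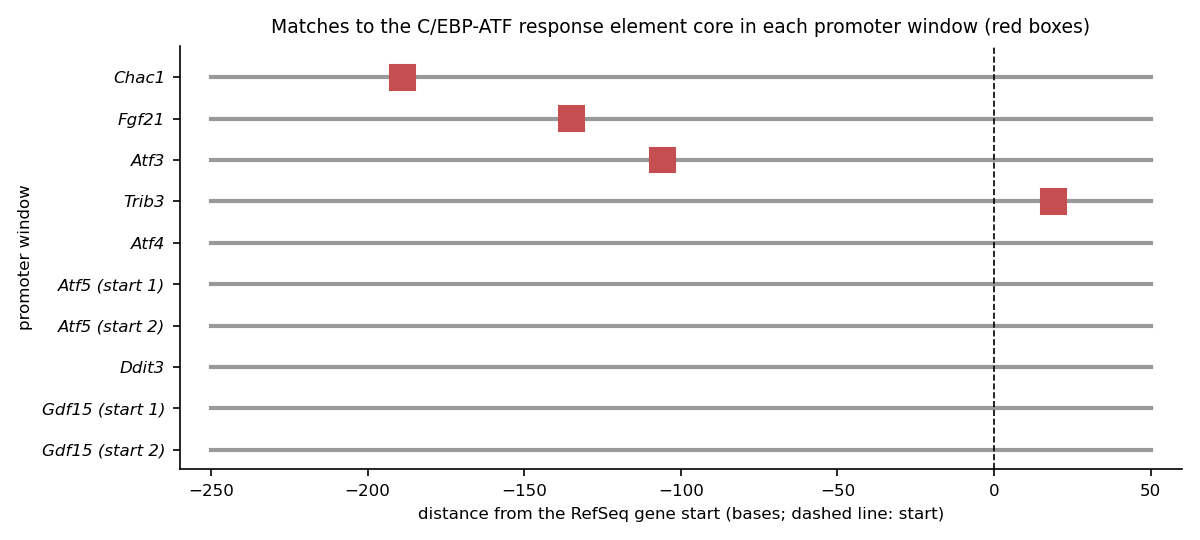
Promoter windows of the 8 genes, drawn as distance in bases from each RefSeq gene start, with matches to the core as red boxes. Matches begin at position -193 in Chac1, -139 in Fgf21, -110 in Atf3 and 15 in Trib3, and the windows of Atf4, Atf5, Ddit3 and Gdf15 hold none.

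A match is a description of letters in a window, not a site shown to be bound, and a window without one says nothing about the factor. Among the lists of other genes, 4 of 17 Atf4 target enzymes and transporters with a window held the core, as did 6 of 17 Atf4 or Ddit3 target effectors. None of 12 genes of endoplasmic reticulum stress outside Atf4 and none of 9 mitochondrial chaperones and proteases did. Targets of Atf4 are partly known through this element, so the shares are not independent of the lists.

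Depth set what could be seen. Library totals ran from 1560798 to 2570739 counts in controls and from 973835 to 1302619 in knockouts, and nuclear protein-coding genes took 3.27% to 6.23% of control counts and 2.28% to 18.2% of knockout counts. The libraries hold fragments of short RNA, so each count at these mRNAs is a fragment. Tefm itself gave 0, 2 and 1 counts in the controls and 0, 1, 0 and 2 in the knockouts, too few to check the labels. All 9 cardiomyocyte markers, among them Myh6 and Actc1, were detected, at a summed 3269 to 4391 CPM in controls and 1599 to 2267 in knockouts, and none of them passed the edgeR test described below, in which all 9 had negative fold changes. CPM is counts per 1000000 after edgeR's TMM scaling, which sets the libraries to a common level over most genes. Skeletal muscle markers summed to at most 16.1 CPM and liver markers to at most 4.58 CPM in any library. Actn3 and Pvalb of the muscle list and Apoa1 and Serpina1a of the liver list were at 0 throughout.

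As a group, the 8 genes made up more of the nuclear protein-coding counts in every knockout library than in any control library. Their summed counts were 1, 21 and 14 in controls 1 to 3 and 19, 49, 124 and 205 in knockouts 1 to 4. Per 1000000 nuclear protein-coding counts this was 19.6, 131 and 177 in controls and 651, 1098, 1721 and 1087 in knockouts. Even knockout 1, with the fewest protein-coding counts of all libraries, stood above the highest control. Atf4, Gdf15, Atf5 and Trib3 supplied most of the knockout counts. These counts are of fragments in crude mitochondria, not of RNA from whole heart. More RNA per cell, more cells with the RNA and more of the RNA in the fraction cannot be told apart here.

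**Figure D2:**
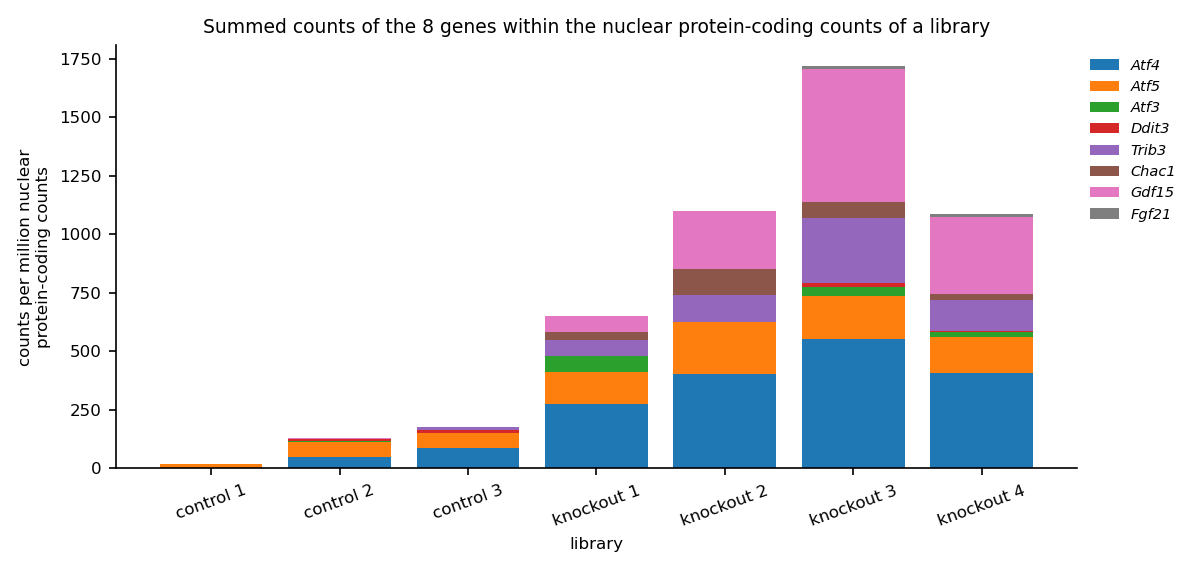
Stacked counts of the 8 genes per 1000000 nuclear protein-coding counts (vertical axis) in each of the 7 libraries (horizontal axis), with 1 colour per gene. The 4 knockout libraries stand between 651 and 1721, and the 3 control libraries between 19.6 and 177.

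Low counts meant that few of the genes could enter a test over all genes. After the low-count filter, 3 of the 8 remained (Atf4, Atf5 and Gdf15), each through its knockout counts, so a rise was needed for them to enter. Of these, 2 were called higher in knockouts and 0 lower by edgeR's quasi-likelihood test, against 5.25% of the 1505 genes tested that were called higher, 1.73% called lower and 6.98% in either direction. Counts for all 8 are therefore given below, with an exact ratio of summed counts per normalised library size, and a 95% interval that covers counting error only. Of 6 genes with at least 10 counts, 5 had all knockout libraries above all control libraries in CPM. That was true of 7.51% of the 7312 nuclear protein-coding genes and 7.17% of all 7912 features with as many counts. An interval wholly above 1 was found for 5 of the 6 as well, against 12.5% of those protein-coding genes. Of these 6, Chac1, Trib3, Gdf15 and Atf3 had 0 or 1 control counts and reached 10 only through knockout counts. A rise was needed for them to enter, so neither comparison is independent of the threshold.

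**Figure D3:**
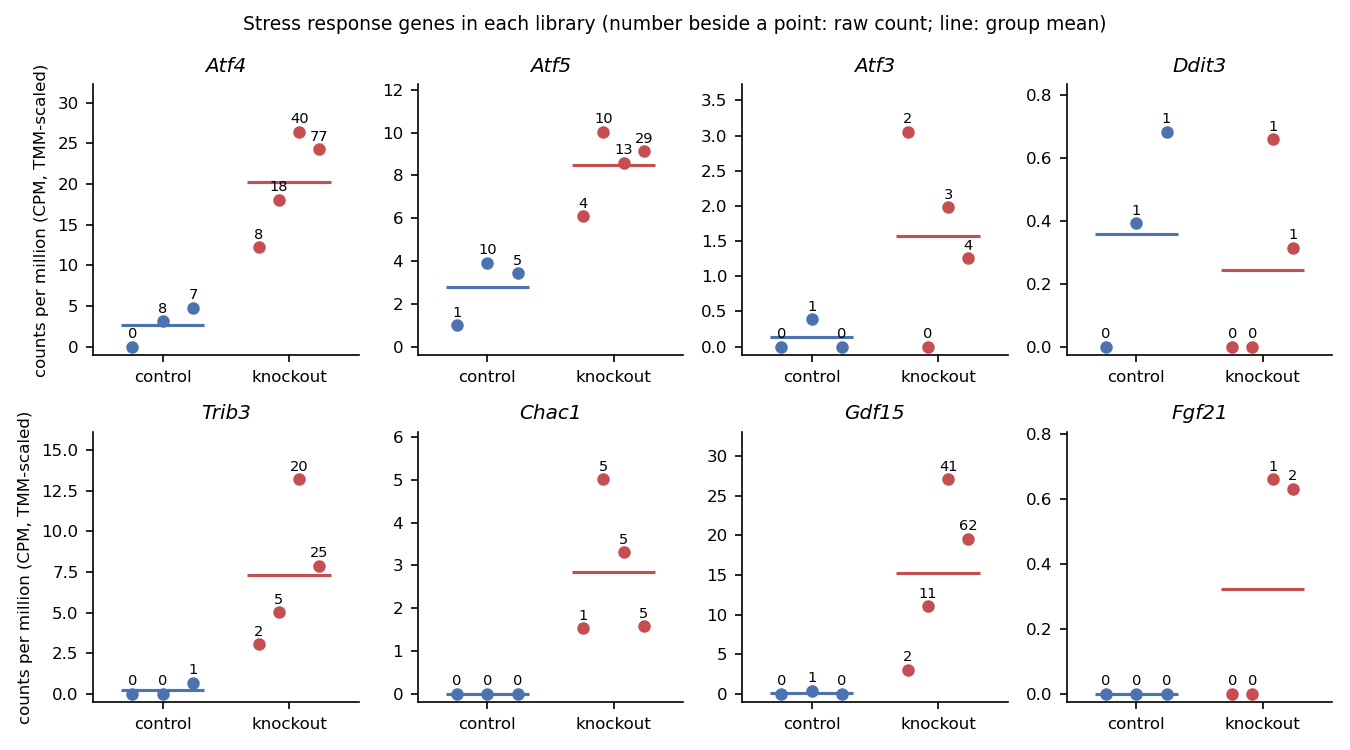
CPM (vertical axis, its own scale in each panel) of the 8 genes in 3 control (blue) and 4 knockout (red) libraries, with the raw count beside each point and the group mean as a line. The groups do not overlap for Atf4, Atf5, Trib3, Chac1 and Gdf15, and they overlap for Atf3, Ddit3 and Fgf21.

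Among the transcription factors, Atf4 fragments rose in knockouts. Atf4 (ENSMUSG00000042406.7, chromosome 15, 80255184 to 80257541, plus strand, GRCm38, from the next version of the same gene in GENCODE M21) encodes the basic leucine zipper factor at the centre of the response. Controls 1 to 3 held 0, 8 and 7 counts of it, and knockouts 1 to 4 held 8, 18, 40 and 77. The control mean was 2.64 ± 2.43 CPM (SD, n = 3) and the knockout mean 20.2 ± 6.42 CPM (SD, n = 4). The highest control was at 4.79 CPM and the lowest knockout at 12.2 CPM. The ratio of 143 to 15 counts was 7.53 per library size (95% interval 4.42 to 13.8). The log2 fold change was 2.82 ± 0.60 (SE; edgeR adjusted p = 0.0366), and the authors' deposited table gives 2.39 with an adjusted p of 4.63e-04. The call was lost without control 2 (edgeR adjusted p = 0.151) or control 3 (0.0995), and narrowly without knockout 1 (0.0507). Without knockout 2, 3 or 4 Atf4 no longer passed the filter, and with the genes tested held the same its adjusted p was 0.0794, 0.0872 and 0.0373. It was also lost under scaling to total counts (edgeR adjusted p = 0.0676), to mitochondrially encoded counts (0.0832) and to microRNA counts (0.975). Over all alternative settings the log2 fold change stayed between 2.21 and 4.15.

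Atf5 was also higher in every knockout library, by less than Atf4. It encodes a related leucine zipper factor, linked to the response to misfolded protein in mitochondria, and its own gene is a target of the integrated stress response. Atf5 (ENSMUSG00000038539.15, chromosome 7, 44812256 to 44816658, minus strand) had 1, 10 and 5 counts in controls and 4, 10, 13 and 29 in knockouts, which is 2.78 ± 1.56 CPM (SD, n = 3) against 8.47 ± 1.68 CPM (SD, n = 4). The highest control was at 3.92 CPM and the lowest knockout at 6.11 CPM. The ratio of 56 to 16 counts was 2.77 (95% interval 1.56 to 5.16). The log2 fold change of 1.47 ± 0.41 did not pass over all genes (edgeR adjusted p = 0.0729). It passed when libraries were scaled to their nuclear protein-coding counts (edgeR adjusted p = 0.0365, 7.31% of genes called higher) or with the composition of each library as a covariate (0.0278, 13% called higher). It did not pass under scaling to total counts (edgeR adjusted p = 0.353), mitochondrially encoded counts (0.329) or microRNA counts (0.975). DESeq2 did not call it either (adjusted p = 0.172), and the authors' deposited table gives 1.24 with an adjusted p of 0.152. The gene shares 82 exonic bases with Nup62 and Il4i1 on the opposite strand, and the sources used here do not say whether counting used strand, so a part of its counts may belong to them.

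Atf3 and Ddit3, the factors known for stronger or longer stress, were barely detected. Atf3 (ENSMUSG00000026628.13, chromosome 1, 191170296 to 191218039, minus strand), a stress-induced factor that mostly represses its targets, had 0, 1 and 0 counts in controls and 2, 0, 3 and 4 in knockouts. Knockout 2 had none, so the groups overlap. The ratio of 9 to 1 was 7.11, and its 95% interval of 0.985 to 312 includes 1 and is very wide. Ddit3 (ENSMUSG00000025408.15, chromosome 10, 127290774 to 127296288, plus strand), known as CHOP and linked to cell death in prolonged stress, had 0, 1 and 1 counts in controls and 0, 0, 1 and 1 in knockouts. With 2 counts a group, no ratio is given, and a difference in Ddit3 was not detectable at this depth. Its exons share 68 bases with Mars on the opposite strand, 13 with Gm4189 and 105 with a second gene of the same name, so the origin of these counts is uncertain. In a library of the depth of knockout 4, a count of 0 still allows 0.946 CPM, and in one of the depth of knockout 1 it allows 4.58 CPM.

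The effectors Trib3 and Chac1 had 68 counts in knockouts and 1 in controls. Trib3 (ENSMUSG00000032715.9, chromosome 2, 152337422 to 152344032, minus strand) encodes a pseudokinase that binds Atf4 and Ddit3 and dampens the response. It had 0, 0 and 1 counts in controls and 2, 5, 20 and 25 in knockouts, or 0.228 ± 0.395 CPM (SD, n = 3) against 7.29 ± 4.42 CPM (SD, n = 4). Every knockout, from 3.05 CPM up, was above the highest control at 0.684 CPM. The ratio of 52 to 1 was 41.1 with a 95% interval from 7.06 to 1653, so its size is known only roughly. Without control 2 the ratio was 20.2. Without control 3, which held the single control count, Trib3 was 9.69-fold higher when set against 3 control counts (95% interval from 7.61). Trib3 did not pass the low-count filter. With the minimum count lowered from 10 to 5 its log2 fold change was 4.81 ± 0.87 (edgeR adjusted p = 0.0230), a setting in which 2.44% of 3196 genes were called higher. DESeq2 called it as well (adjusted p = 0.00406), where 2.55% of 4161 genes were called higher, and the authors' deposited table gives an adjusted p of 0.00158.

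Chac1 (ENSMUSG00000027313.3, chromosome 2, 119351229 to 119354381, plus strand) encodes an enzyme that breaks down glutathione and is a strongly induced target of Atf4. It had 0 counts in all 3 controls and 1, 5, 5 and 5 counts in knockouts. The knockouts thus ran from 1.53 to 5.02 CPM (2.86 ± 1.66, SD, n = 4), with knockouts 1 and 4 lowest. Set against the 3 counts that a total of 0 allows over the controls, the 16 knockout counts were 4.21-fold higher (95% interval from 3.05). Chac1 was called without a low-count filter (edgeR adjusted p = 0.0242, 0.79% of 15828 genes called higher) and not with the minimum count of 5 (edgeR adjusted p = 0.119).

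Of the secreted factors, Gdf15 had the highest ratio of counts of the 5 genes with a ratio, while Fgf21 was near 0 in both groups. Gdf15 (ENSMUSG00000038508.7, chromosome 8, 70629393 to 70632456, minus strand) encodes a cytokine of the transforming growth factor beta family that lowers food intake through a receptor in the hindbrain. It had 0, 1 and 0 counts in controls and 2, 11, 41 and 62 in knockouts. In CPM the knockouts stood at 3.05, 11.04, 27.1 and 19.6, all above the highest control at 0.392, and they differed among themselves more than those of Atf4 did. The ratio of 116 to 1 was 91.6 (95% interval 16.1 to 3651). Its log2 fold change was 5.92 ± 0.98 (edgeR adjusted p = 0.0159), and the authors' deposited table gives 3.64 with an adjusted p of 9.90e-05. The call was lost without control 2 (edgeR adjusted p = 0.0956), without control 3 (0.0910) and under scaling to microRNA counts (0.975). Control 2 held the single control count. Without control 2, Gdf15 was 14.99-fold higher by ratio of counts when set against 3 control counts (95% interval from 11.99). Without knockout 2, 3 or 4 Gdf15 did not pass the filter, and with the genes tested held the same its adjusted p was 0.0403, 0.0463 and 0.0237. Over all alternative settings the log2 fold change was at least 5.37.

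Fgf21 (ENSMUSG00000030827.5, chromosome 7, 45613886 to 45615490, minus strand) encodes a hormone made mainly by the liver, and by muscle under mitochondrial stress. It had 0 counts in all controls, 0 in knockouts 1 and 2, 1 in knockout 3 and 2 in knockout 4. The 2 libraries with a count were also the knockouts with the most protein-coding counts (72044 and 188642). With 3 counts in all, no ratio is given and the expression of Fgf21 could not be compared. Liver markers summed to between 0 and 4.58 CPM in knockouts and to between 0.392 and 2.01 CPM in controls.

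**Figure D4:**
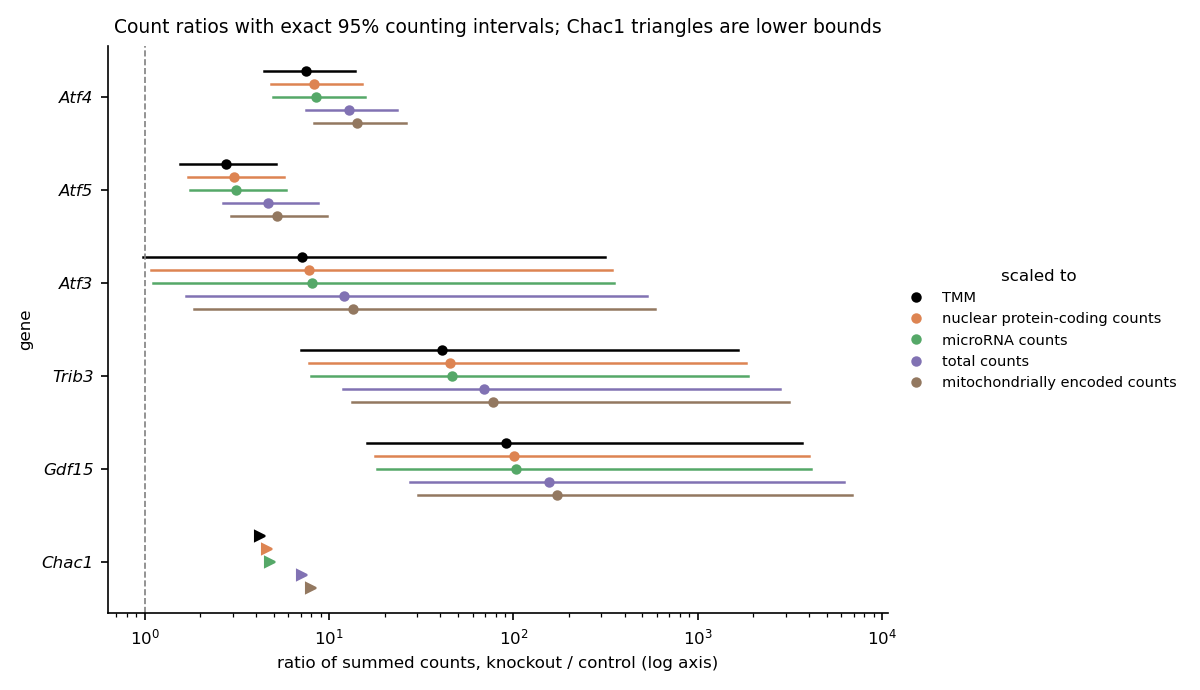
Ratio of summed counts in knockouts over controls (horizontal log axis) for 5 genes, with exact 95% counting intervals, under 5 ways of scaling libraries (colours). Triangles for Chac1, called lower bounds in the title, set its knockout counts against 3 control counts and leave out counting error in the knockouts. With TMM scaling the ratios are 2.77 for Atf5, 7.11 for Atf3, 7.53 for Atf4, 41.1 for Trib3 and 91.6 for Gdf15, and among the intervals shown that of Atf3 with TMM scaling alone reaches below 1.

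The intervals above ignore variation between animals, so the group means in CPM of 7 genes (all but Fgf21) were also compared by an exact permutation test, two-sided, over the 35 ways to assign the library labels. The smallest p this design allows is 0.0286, and the p-values are not adjusted. That p was reached by Atf5 (exact permutation p = 0.0286), whose knockout libraries lay close together. Atf4, Trib3 and Gdf15 each gave an exact permutation p of 0.0571, Chac1 gave 0.0857, Atf3 0.171 and Ddit3 0.571. Per 1000000 nuclear protein-coding counts, Atf4 also gave 0.0286 (exact permutation test), where controls averaged 46.2 ± 44.4 (SD, n = 3) and knockouts 410 ± 115 (SD, n = 4). Per 1000000 total counts, Atf4, Atf5, Trib3 and Gdf15 each gave 0.171 (exact permutation test).

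The libraries differed in makeup within both groups, so each control was set beside the knockout library nearest to it in makeup, a comparison chosen after the data were examined. Makeup was measured as the log2 ratio of small RNA (microRNA plus snoRNA) to nuclear protein-coding counts. Control 1 (2.88) was matched by knockout 2 (3.11), control 3 (0.61) by knockout 3 (0.54) and control 2 (-1.35) by knockout 4 (-2.44). The members of each pair had similar numbers of protein-coding counts, with 51111 and 44615, 79048 and 72044, and 160267 and 188642. Atf4 had 0 counts against 18 in the first pair, 7 against 40 in the second and 8 against 77 in the third. Gdf15 had 0 against 11, 0 against 41 and 1 against 62, and Trib3 had 0 against 5, 1 against 20 and 0 against 25. The knockout library was the higher one in all 3 pairs for Atf4, Gdf15, Trib3, Chac1 and Atf5. Per protein-coding count, every knockout library was above every control library for these genes. Any pairing would therefore give the same direction, and the pairs add no separate evidence for it. For Atf5 the ratio per protein-coding count was 11.5 in the first pair (1 against 10 counts, 95% interval 1.63 to 497), 2.85 in the second (0.954 to 10.2) and 2.46 in the third (1.17 to 5.67).

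Levels of different genes were compared per kilobase of exon (GENCODE M21). In knockouts Atf4 and Gdf15 were the highest, at 8.59 ± 2.72 and 8.20 ± 5.62 CPM per kb (SD, n = 4). Atf5 followed at 4.25 ± 0.84, Trib3 at 3.43 ± 2.08, Chac1 at 1.75 ± 1.01, Atf3 at 0.731 ± 0.595, Fgf21 at 0.339 ± 0.392 and Ddit3 at 0.142 ± 0.184. Each neighbour in this order overlapped the next over the 4 libraries. Atf4 was above Atf5 in all 4 without overlap, and Atf5 was above Atf3 in the same way. In controls Atf5 averaged 1.40 CPM per kb, Atf4 1.12, Trib3 0.107 and Gdf15 0.0706. The ranges of Atf5 and Atf4 overlapped there, and Atf4 was the higher one in control 3. The balance of Gdf15 to Atf4 varied between knockouts. Per kb it was 0.318 in knockout 1, 0.778 in knockout 2, 1.305 in knockout 3 and 1.03 in knockout 4, and it was 0.159 in control 2, the only control with a count of Gdf15.

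The other genes of the pathway were taken from lists of 4 kinds. Of 17 kinases and factors of translation control, 16 were found in the files and none had enough counts for the test. By ratio of counts, 3 of the 14 with at least 10 counts had an interval above 1. The share was 12.5% over protein-coding genes with as many counts, and 5 of 12 housekeeping genes had such an interval. One of the 3 was Ppp1r15a, the phosphatase subunit that reverses the eIF2 phosphorylation, with 2 control and 18 knockout counts (ratio 7.11, 95% interval 1.70 to 63.2). The kinases Eif2ak1 (13 and 18 counts, ratio 1.09, 0.507 to 2.43) and Eif2ak3 (9 and 15 counts, ratio 1.32, 0.540 to 3.41) had intervals that include 1. So did the kinase Eif2ak2, with a ratio below 1 (10 and 7 counts, ratio 0.553, 0.179 to 1.61). Ppp1r15a, Eif2ak1, Eif2ak2 and Eif2ak3 were singled out after their values were seen, as were the genes given by their ratio in the next paragraph.

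Of the 18 leucine zipper partners and other factors, 3 were tested and 1 was called higher. This was Atf6, the factor of a parallel branch of the endoplasmic reticulum stress response, which rose by 1.52 ± 0.27 (log2, edgeR adjusted p = 0.0220). Controls averaged 8.92 ± 0.88 CPM (SD, n = 3) against 25.6 ± 6.14 CPM (SD, n = 4) for knockouts. With the filter applied anew, the call was lost without any 1 of the controls. Jun was at -0.67 ± 0.34 (positive under scaling to total, microRNA or mitochondrially encoded counts) and Nfe2l1 at 0.15 ± 0.34. Cebpb, a C/EBP factor induced in stress, had 6 and 26 counts (ratio 3.42, 95% interval 1.38 to 10.2), while Cebpg, a common partner of Atf4, had 11 and 19 (ratio 1.36, 0.617 to 3.17).

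Of the genes listed as targets of Atf4 or Ddit3, 10 were called higher in knockouts. Over all 1505 genes tested 5.25% were called higher and 1.73% lower, which is the background for every list. Of 21 Atf4 target enzymes and transporters 6 were tested, and 3 were called higher and 0 lower. Asns, asparagine synthetase, rose by 5.12 ± 0.71 (log2, edgeR adjusted p = 0.00924), Aldh18a1 of proline synthesis by 3.305 ± 0.49 (0.0102) and Shmt2 of mitochondrial serine breakdown by 1.97 ± 0.44 (0.0402). Of the 17 with at least 10 counts, 14 had a ratio interval above 1 and 0 below, against 12.5% and 8.56% of protein-coding genes and 5 and 0 of 12 housekeeping genes. Mthfd2, the mitochondrial folate enzyme, had 0 control and 51 knockout counts, and Slc7a11, the cystine transporter, had 0 and 26. Of 24 target effectors 10 were tested, and 7 were called higher and 0 lower. Gars rose by 3.49 ± 0.37 (edgeR adjusted p = 0.00550), Sars by 2.89 ± 0.27 (0.00413) and Iars by 2.72 ± 0.37 (0.00857), all of them genes of tRNA synthetases. Ratio intervals were above 1 for 16 of 22 effectors and below 1 for 1, the lipoprotein receptor Vldlr (206 and 148 counts, ratio 0.568, 0.456 to 0.704). Sesn2, a sensor of leucine, had 1 and 32 counts (ratio 25.3, 4.22 to 1029), while Ddit4 had 10 and 14 (ratio 1.11, 0.457 to 2.78). The median log2 fold change was 1.505 over the 6 enzymes and transporters and 2.15 over the 10 effectors, against 0.02 over all genes tested. Many targets passed the filter through their knockout counts, as the 3 tested members did. Mthfd2 and Slc7a11, at 0 in controls, likewise reached 10 counts only through knockouts. Without control 2 or control 3, none of the 10 target genes was called by edgeR when the filter was applied anew. In these settings 20 and 19 of the 28 tested genes of the 4 pathway lists had an unadjusted edgeR p under 0.05. Over all genes tested there, 395 of 2250 and 407 of 2355 did. The call of Shmt2 was lost on leaving out any 1 of the 7 libraries, with an adjusted p by edgeR from 0.0524 to 0.141 when the genes tested were held the same.

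**Figure D5:**
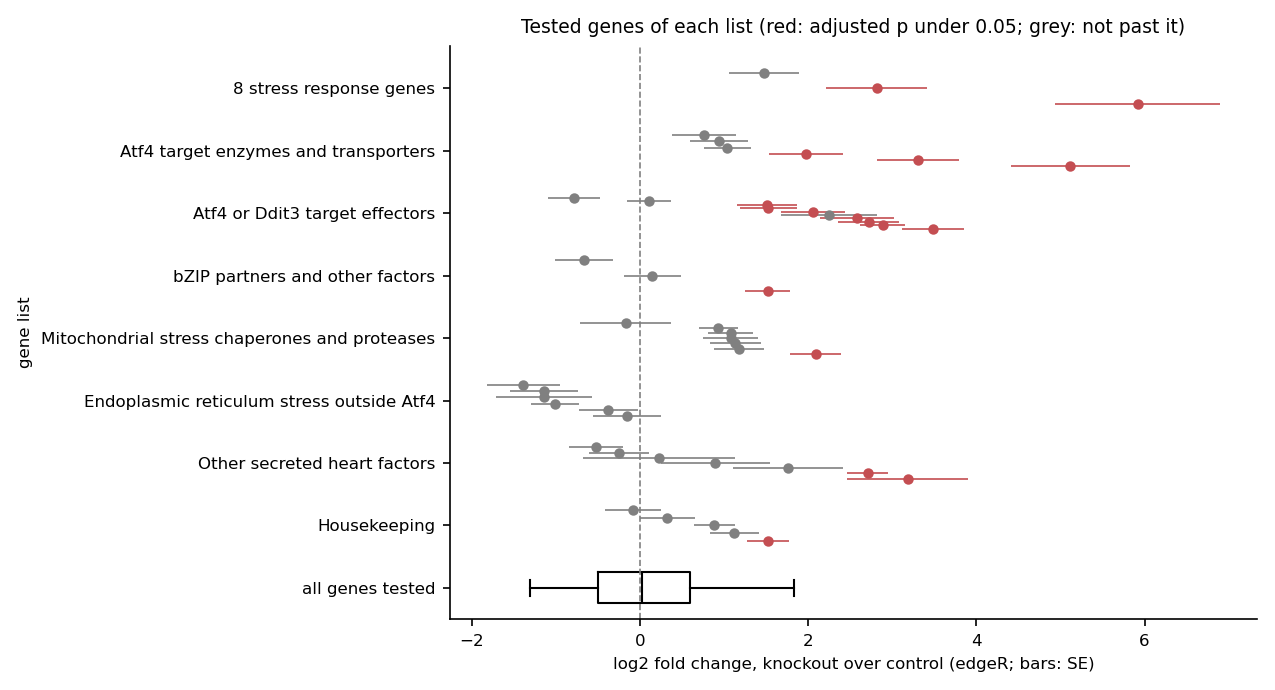
edgeR log2 fold changes (horizontal axis, bars are SE) of the tested genes of each list, red where the adjusted p was under 0.05, with all 1505 tested genes as a box (median line, quartiles, whiskers from the 5th to the 95th percentile). Target lists lie mostly to the right, with 3 of 6 and 7 of 10 genes called, and the 6 tested genes of endoplasmic reticulum stress outside Atf4 lie to the left with none called.

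Genes of neighbouring stress pathways did not move as one. Of 14 chaperones and folding enzymes of the endoplasmic reticulum outside the Atf4 branch, 6 were tested and none was called by edgeR. All 6 had negative fold changes, with Calr at -1.39 ± 0.44, Hsp90b1 at -1.15 ± 0.41 and Pdia3 at -1.01 ± 0.29. Under scaling to mitochondrially encoded counts these 3 were positive, while DESeq2 called Calr lower (adjusted p = 0.0176) and edgeR with the composition covariate called all 3 lower. By ratio of counts, 6 of 12 had an interval below 1 and 1 above, against 8.56% and 12.5% of protein-coding genes. Of 12 mitochondrial chaperones and proteases, 7 were tested and 1 was called higher, the matrix protease Lonp1 (2.09 ± 0.31, edgeR adjusted p = 0.0102). Control libraries averaged 10.1 ± 0.51 CPM (SD, n = 3) of Lonp1 and knockout libraries 43.1 ± 11.7 CPM (SD, n = 4), and with the filter applied anew its call was lost without any 1 of the controls. By ratio of counts, 7 of 12 had an interval above 1 and 0 below. For housekeeping genes it was 5 and 0 of 12, and for protein-coding genes 12.5% and 8.56%. Clpx was at 1.08 ± 0.27 and Dnaja3 at 0.93 ± 0.23, with an adjusted p of 0.0552 each by edgeR. Of the receptors for the secreted members, Gfral, Klb and Fgfr4 had 0 counts in all 7 libraries, and none of the 7 receptors was tested.

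Among 14 other secreted factors of the heart 7 were tested and 2 were called higher, namely Nppb (2.71 ± 0.25, edgeR adjusted p = 0.00413) and Tgfb2 (3.18 ± 0.72, 0.0405). Nppa was at 1.76 ± 0.66 (edgeR adjusted p = 0.151). With the filter applied anew, the call of Tgfb2 was lost without control 1 (edgeR adjusted p = 0.0627), control 2 (0.102) or control 3 (0.131), and that of Nppb without control 2 (0.0694) or control 3 (0.0767). Of 13 housekeeping genes 5 were tested and 1 was called higher, Polr2a (1.52 ± 0.25, edgeR adjusted p = 0.0159), whose call was also lost without any 1 of the controls. By ratio of counts, 5 of 12 housekeeping genes had an interval above 1 and 0 below. Eef1a1 was at 1.12 ± 0.29 and Rpl4 at 0.88 ± 0.25, so a fold change of about the size of that of Atf5 also occurred among housekeeping genes.

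Markers of other cells were also compared. Endothelial markers summed to 78.5 to 153 CPM in controls and 30.1 to 87.7 in knockouts, with 0 of 5 tested called. White blood cell markers summed to 35.2 to 55.4 and 15.2 to 31.1 CPM, with 1 of 3 tested called lower (Cd74). Fibroblast markers summed to 251 to 433 and 212 to 651 CPM, with Postn called higher (2.69 ± 0.58, edgeR adjusted p = 0.0366) and 0 of the other 6. Erythroid markers (11.8 to 19.2 and 5.02 to 18.3 CPM) and adipocyte markers (8.24 to 10.1 and 1.004 to 7.88 CPM, Lep at 0) had no tested gene. The part of these cells in the changes of the 8 genes was not tested.

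The genes most like a member across the 7 libraries were found by Pearson's r of log2 CPM over the genes tested. For Atf4 they were the alanyl-tRNA synthetase gene Aars (r = 0.984), Arfgef2 (0.980) and the sodium-calcium exchanger gene Slc8a1 (0.979). For Atf5 they were Slc8a1 (0.980), Atf4 itself (0.976) and Sbf1 (0.971). For Gdf15 they were Fbxo40, a muscle F-box protein gene (0.993), Xirp1 (0.980) and Pdk4, which encodes a kinase that inhibits pyruvate dehydrogenase (0.977). All points share the group difference, the scaling and the makeup of the libraries, and with 7 libraries and 1505 genes high values of r arise readily, so r is a description only.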

How the data were processed

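Per the labels' protocols, small RNA of crude heart mitochondria was sequenced on a MiSeq from 1 end after library preparation with a kit of Illumina. The authors deposited raw counts per gene for each library. The submitters' processing notes name DESeq2 1.14.1, R 3.3.2, featureCounts, SAMtools 1.3.1, bedtools, Bowtie2, cutadapt 1.10 and mm10, without roles. Annotation release, strand setting and handling of multiply mapped reads: not given in the sources used here. Per the file headers, the authors' deposited comparison gives for each gene the mean signal after normalisation, the log2 fold change and its standard error, the test score, the p-value and the adjusted p-value.

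The counts of both groups entered 1 quasi-likelihood fit (edgeR 4.0.16, TMM, two-sided, minimum count 10, run in R 4.3.3), with Benjamini-Hochberg adjustment over 1505 genes and a threshold of 0.05. SE is the log2 fold change divided by the square root of F. Ratios use summed counts per normalised library size with exact (Clopper-Pearson) 95% intervals. A group at 0 was set to 3 counts, and where neither group had more than 3 counts no ratio was computed. No molecular identifiers are described, so intervals cover counting error alone. Permutation tests enumerated all 35 splits (Python 3.11.15, numpy 2.4.6, scipy 1.17.1, pandas 2.3.3). Alternatives were other scalings and filters, DESeq2 1.42.0, the replicate block, a composition covariate (log2 ratio of microRNA and snoRNA to nuclear protein-coding counts) and leaving out each library. Scripts were tested on simulated data.

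Of 25-base words in the transcripts of each gene (GENCODE M21), 8.71% for Ddit3, 3.07% for Atf5, 0.11% for Gdf15 and 0% for the other 5 also occur in other genes. Promoter sequences come from RefSeq (GRCm38.p6), where all 8 genes matched by symbol. No protein sequence was used here. The members and lists were chosen with earlier results of these data known. The text names all members, up to 3 tested genes per list with the smallest p, the 3 genes most like each tested member, and genes marked as singled out.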

Additional observations from a re-analysis of the deposited data

Results flagged for a closer look

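Among 29 groups of 4 knockout libraries examined for the genes named in the text, 3 had 1 library far from the rest by Dixon's test at the 95% level, which chance gives in about 5% of groups. None was one of the 8 stress response genes. Atf6 was at 34.7 CPM in knockout 4, with the other knockouts between 21.4 and 23.1 CPM. Sars was at 13.7 CPM in knockout 1, with the others between 18.5 and 19.2 CPM. Eef1a1 was at 19.9 CPM in knockout 1, with the others between 31.7 and 34.1 CPM.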

How the results depend on the processing

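In every setting that tested them, Atf4, Atf5 and Gdf15 kept positive fold changes, and no ratio of counts of a member fell below 1. The calls did depend on the processing. Of all genes 105 were called by edgeR, against 11 under scaling to total counts, 0 to microRNA counts (28 at an unadjusted p under 0.05 by edgeR), 8 to mitochondrially encoded counts, 192 without a low-count filter, 371 with the composition covariate and 184 by DESeq2. Of the members 2 were called, against 1, 0 (1 unadjusted by edgeR) and 1 under those 3 scalings and 4 without a filter. Of the other pathway genes 11 were called, against 3, 0 (2 unadjusted by edgeR), 1 and 17. With the replicate block 0 genes, 0 members and 0 pathway genes were called by edgeR (338, 3 and 14 unadjusted). The deviations of same-numbered libraries had mixed signs (r = 0.530, -0.804 and 0.319 for numbers 1 to 3), so the numbers were not taken to pair the samples. Leaving out 1 library left 0 to 75 genes, 0 to 2 members and 0 to 10 pathway genes called, and 0 to 79, 0 to 2 and 0 to 10 with the genes tested held the same. The members' count was 0 without control 2 or control 3, and without knockout 2, 3 or 4 no member passed the filter. The causes were not tested. The difference in Ddit3 turned positive per total counts (exact permutation p = 0.486) and without control 3, and its exact permutation p ran from 0.2 to 1 over the libraries left out. Jun turned to 0.36, 0.53 and 0.63 under scaling to total, microRNA and mitochondrially encoded counts, where Pdia3, Calr and Hsp90b1 turned to 0.17, 0.12 and 0.071 under the last. Nfe2l1 turned to -0.11 with the replicate block, and over the libraries left out it ran from -0.19 to 0.377. Over all genes tested, the median was 0.89, 0.88 and 1.12 (log2) under these 3 scalings. Depth limits Atf3, Ddit3 and Fgf21 most, each with 10 counts or fewer in all.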
